A study of Mus musculus with 6 samples.

Results

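The transcripts described here encode the main peptide hormones of the pancreatic islet, Ins2, Iapp, Gcg, Sst, Ppy and Pyy, together with Ucn3, the urocortin 3 peptide of mature beta cells. Members were all probe sets (groups of short probes that read 1 transcript on an Affymetrix array) whose platform symbol is exactly 1 of these 7 genes. There were 10 such probe sets of 45037 non-control probe sets, 4 of them for Iapp and 1 for each other gene. The arrays carried RNA of islets freed by collagenase, enriched by density and picked by hand, from male C57Bl6 mice 12 weeks old. The 3 Flox arrays came from flox mice, the controls, and the 3 Tead1KO arrays from mice that lack Tead1, a DNA-binding factor at the end of the Hippo pathway, in beta cells. The labels do not name the Cre driver. No label ties an array to a single animal or culture, so p-values measure the spread between these arrays, which may be technical. All values are log2 signals as deposited, and every difference is Tead1KO minus Flox.

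Beta cells make insulin and islet amyloid polypeptide (Iapp), which are stored in the same granules and released together when glucose rises. Alpha cells make glucagon from the Gcg precursor, delta cells make somatostatin, which inhibits their neighbours, and PP cells make pancreatic polypeptide. Peptide YY, a relative of pancreatic polypeptide, is made by several endocrine cell types. Mouse beta cells switch on Ucn3 as they mature and release its peptide with insulin, and the peptide acts on delta cells through the receptor Crhr2 to raise somatostatin release. In bulk islet RNA, fewer cells of a type and less RNA per cell cannot be told apart.

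Of the 7 genes, Ucn3 was lower in Tead1KO islets on every array by 1.93-fold on average, a difference that missed the threshold over all probe sets. The hormone transcripts Ins2, Iapp, Gcg, Sst, Ppy and Pyy had differences between -0.013 and 0.066 and overlapped between groups. The test was a linear model per probe set with a shared estimate of the spread (limma), adjusted over all probe sets. Of the 10 probe sets, 0 had an adjusted p under 0.05 in limma, against 0.18% of all probe sets, and 1 (Ucn3) had an unadjusted p under 0.05, against 5.18%. The same probe set was the only member whose Tead1KO arrays all lay below its Flox arrays, as 5.16% of all probe sets did. In total 8 of the 10 probe sets lay near the top of the scale, where most probe sets differed little, and only Ucn3 and 1 probe set of Iapp lay below it.

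The sequences upstream of 4 members are shown to set the promoter of Ucn3, lower in Tead1KO, beside that of Gcg, with the smallest difference of all members, and those of the neighbouring genes Ppy and Pyy, whose signals varied together. Each runs 5′ to 3′ over the 250 bases before the transcription start in RefSeq (GRCm38.p6), on the minus strand in all 4. Capitals mark the letters CATTCC, the core bound by Tead factors, TAAT, the core bound by homeodomain factors such as Pdx1 and Nkx6-1, and TATAAA, the TATA box, searched on both strands. Of 7 members, 6 had an entry, all but Ins2. The positions are chr13:3945350-3945599 for Ucn3, chr2:62483654-62483903 for Gcg, chr11:102101320-102101569 for Ppy and chr11:102107833-102108082 for Pyy.
Ucn3: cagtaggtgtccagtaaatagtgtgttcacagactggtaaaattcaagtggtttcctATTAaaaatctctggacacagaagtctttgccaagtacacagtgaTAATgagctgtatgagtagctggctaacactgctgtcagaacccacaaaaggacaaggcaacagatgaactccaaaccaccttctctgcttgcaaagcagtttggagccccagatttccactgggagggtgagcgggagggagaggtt
Gcg: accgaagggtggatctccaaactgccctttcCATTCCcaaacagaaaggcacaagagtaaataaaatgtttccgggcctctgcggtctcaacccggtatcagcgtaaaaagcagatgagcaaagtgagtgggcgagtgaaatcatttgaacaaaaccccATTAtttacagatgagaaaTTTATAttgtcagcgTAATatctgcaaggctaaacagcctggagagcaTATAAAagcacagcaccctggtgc
Ppy: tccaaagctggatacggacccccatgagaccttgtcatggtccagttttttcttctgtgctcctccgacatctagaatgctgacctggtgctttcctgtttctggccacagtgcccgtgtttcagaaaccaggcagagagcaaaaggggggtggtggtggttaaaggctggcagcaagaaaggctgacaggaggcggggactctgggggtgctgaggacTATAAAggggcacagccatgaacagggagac
Pyy: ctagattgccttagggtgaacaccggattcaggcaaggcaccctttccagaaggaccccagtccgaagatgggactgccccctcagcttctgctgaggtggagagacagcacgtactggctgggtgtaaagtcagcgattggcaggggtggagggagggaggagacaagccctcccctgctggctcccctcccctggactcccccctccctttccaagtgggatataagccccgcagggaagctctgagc
CATTCC occurred in Gcg alone among the 6, with its match starting 219 bases before the start, and in 12.6% of 32851 promoters of this length. TAAT occurred in 2 places in Ucn3 (193 and 148 bases before the start), in 2 in Gcg, in 5 in Iapp and in 1 in Sst, and in 0 in Ppy and Pyy. It was found in 54.9% of all promoters. TATAAA was present in Gcg and Ppy and in 12.4% of all promoters. Ppy and Pyy lie next to each other on chromosome 11, with 0 annotated genes between them.

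The arrays were not of equal quality. Bacterial transcripts spiked in as hybridization controls read 10.60 to 11.89 in Flox, 12.09 and 10.87 in Tead1KO replicates 1 and 2, and 13.23 in Tead1KO replicate 3. That array also had the narrowest interquartile range (2.65, against 2.99 to 3.32) and the lowest mean correlation with the other arrays (0.969, against 0.984 to 0.986). Ucn3, Ppy and Pyy are given with and without it. So are named genes of the lists below whose printed difference at the brightest probe set moved by over 1.5 times. Background was taken as the range of bacterial probe sets with no target in the samples, 2.87 to 4.70. The targeted gene, at its brighter Tead1 probe set, read 7.22, 6.99 and 7.40 in Flox and 6.72, 7.49 and 5.95 in Tead1KO, which overlap (difference -0.49, limma adjusted p = 0.871). Of the 6 arrays, Tead1KO replicate 3 read lowest and replicate 2 highest, and this difference is not given without replicate 3. Whether the probes lie inside the deleted part of Tead1 is unknown here, so this probe set does not check the labels.

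Probe sets high on the scale had smaller differences in most cases. Near the top was taken as the highest 0.5% of probe sets by mean signal. This group held 225 probe sets with means of 13.12 or more, and the highest value on any array was 15.71. Over 51 probe sets with means between 14 and 15, the median spread (SD) within a group was 0.091, and over 3701 probe sets between 9 and 11 it was 0.24. The median size of the difference fell from 0.19 in the lower of these ranges to 0.060 in the higher. Of the 225 probe sets near the top, 0 passed (11 at an unadjusted p under 0.05) and 0 differed by over 0.5 in either direction. For 66 genes read by both a probe set near the top and a dimmer probe set above 7, the difference was the smaller at the top in 45, with medians of 0.087 and 0.15. The within-group SDs of these pairs had medians of 0.13 at the top and 0.22 below. The 2 differences had the same sign in 51 of the 66 genes. Ero1b, an oxidase that forms disulfide bonds in proinsulin, shows the pattern, with -0.32 at its probe set near the top and -0.93 and -0.97 at its dimmer probe sets. Iapp goes the other way, with 0.032 at its brightest probe set and 0.0081 at its dimmest. Wide spreads also occurred near the top. Of the 225 probe sets 23 spanned over 1 across the 6 arrays, and the 5 acinar markers among them spanned 1.82 to 2.41, as Ctrb1, a digestive protease, did from 12.43 to 14.71. Small differences of the hormone probe sets near the top are given with their intervals and not as equal levels.

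**Figure D1:**
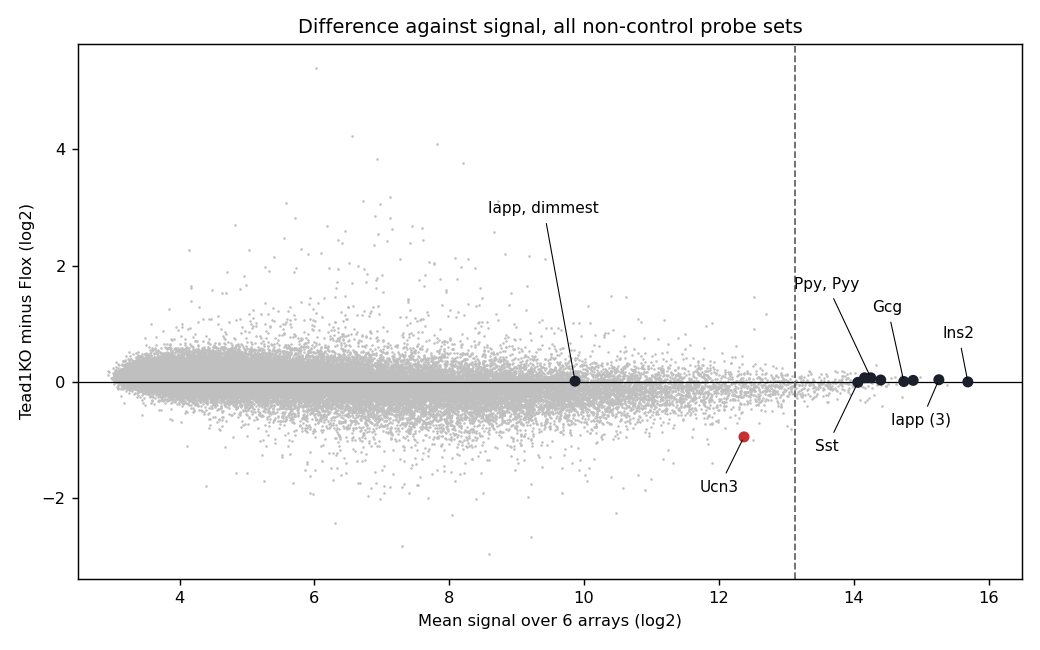
Mean signal over the 6 arrays (log2, x axis) against Tead1KO minus Flox (log2, y axis) for 45037 probe sets (grey), with members in black and Ucn3 in red; the dashed line at 13.12 bounds the highest 0.5% of probe sets. The hormone points lie at 0 at the right end where all points narrow, the dimmer Iapp probe set lies at 0 in the middle of the scale, and Ucn3 lies at -0.95 left of the line.

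Ins2, the precursor of insulin 2, was read by 1422446_x_at, the brightest of all 45037 probe sets on each of the 6 arrays. It read 15.69, 15.71 and 15.68 in Flox and 15.69, 15.67 and 15.71 in Tead1KO. The 6 arrays lay within 0.042 of each other and the groups overlapped. The mean over the arrays lay 0.017 below the highest value of the table, and the difference was -0.0050 (95% interval -0.17 to 0.16). How the amount of transcript relates to signal at this end of the scale was not tested. Probe sets with the suffix _x_at can also match related transcripts, so a part of Ins1 transcript in this signal cannot be told apart.

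Iapp, which encodes islet amyloid polypeptide, was read by 4 probe sets, of which 3 lay near the top and 1 in the middle of the scale. Its brightest, 1423509_a_at, ranked between the second and the fourth place on each array and read 15.26, 15.23 and 15.24 in Flox and 15.27, 15.43 and 15.13 in Tead1KO. Tead1KO replicate 2 was the highest and replicate 3 the lowest of the 6 arrays. Its difference was 0.032 (95% interval -0.19 to 0.26). The probe sets 1423510_at and 1437323_a_at, also near the top with means of 14.88 and 14.40, differed by 0.021 and 0.028. The probe set 1456004_x_at lay 5.84 below the highest value, with room on both sides of the scale. It read 10.01, 9.74 and 9.83 in Flox and 9.88, 9.85 and 9.89 in Tead1KO, with the 3 Tead1KO arrays inside the range of the Flox arrays. Its difference was 0.0081 (SE 0.15, 95% interval -0.33 to 0.35, limma adjusted p = 0.991). As an _x_at probe set it can also match related transcripts. Its Pearson correlation over the 6 arrays was -0.028 with 1423509_a_at, -0.50 with 1423510_at and 0.75 with 1437323_a_at.

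Gcg, the precursor of glucagon, was read by 1425952_a_at at 14.69, 14.81 and 14.72 in Flox and 14.76, 14.71 and 14.75 in Tead1KO. The Tead1KO values lay inside the Flox range. The difference was 0.0016 (95% interval -0.20 to 0.20) near the top of the scale, 0.97 below the highest value. Other alpha cell genes gave values over more of the scale, and in this and the other lists each gene was counted at its brightest probe set. Of 10 listed, 7 were measured (the rest were not analysed here), 0 passed (0 at an unadjusted p under 0.05, against 7.23% of all genes), and their median difference was 0.0037 beside -0.0074 over all 18193 genes. The factor Irx2 differed by 0.31 and Irx1 by -0.011, and Pou3f4 and Loxl4 differed by 0.25 and 0.33. The transporters Slc38a5 and Slc7a2 differed by 0.0037 and -0.034. Without Tead1KO replicate 3 Irx2 and Irx1 differed by 0.15 and 0.17, and Pou3f4 and Loxl4 by 0.054 and -0.00052. Slc38a5 and Slc7a2 then differed by 0.15 and 0.096, and the median of the list was 0.096. The summed signal of the list (log2 of the sum) was 14.96 to 14.99 in Flox and 14.94 to 15.01 in Tead1KO, and 0 members lay within background in both groups. Ttr, the carrier transthyretin, made up most of that sum and lay near the top itself, at 14.90 in both groups.

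Sst, the precursor of somatostatin, read 13.93, 14.04 and 14.22 in Flox and 14.08, 14.13 and 13.95 in Tead1KO at 1417954_at. All 3 Tead1KO arrays lay between the lowest and the highest Flox array. The difference was -0.013 (95% interval -0.28 to 0.25), 1.65 below the highest value and near the top. Of 6 delta cell genes, all measured, 0 passed (0 at an unadjusted p under 0.05), with a median difference of 0.037. Rbp4, a retinol carrier, differed by 0.017, Hhex, the delta cell factor, by -0.14, and Ffar4, a fatty acid receptor, by 0.21 (0.14, -0.035 and 0.31 without Tead1KO replicate 3). Ghsr, the ghrelin receptor and a defining delta cell gene, lay within background in both groups. The summed signal of the list was 13.42 to 13.56 in Flox and 13.46 to 13.71 in Tead1KO.

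Ppy and Pyy, the precursors of pancreatic polypeptide and peptide YY, varied most among the hormones and varied together. Ppy at 1420440_at read 13.96, 14.17 and 14.25 in Flox and 14.32, 14.36 and 13.89 in Tead1KO. Pyy at 1424865_at read 14.10, 14.25 and 14.30 in Flox and 14.45, 14.41 and 13.99 in Tead1KO. For both genes Tead1KO replicates 1 and 2 lay above every Flox array and replicate 3 below every Flox array. The differences were 0.066 for Ppy (95% interval -0.28 to 0.41) and 0.066 for Pyy (95% interval -0.26 to 0.39). The SDs of Ppy and Pyy were 0.15 and 0.10 within Flox and 0.26 and 0.25 within Tead1KO. The median for probe sets between 14 and 15, which pools the 2 groups, was 0.091. Without Tead1KO replicate 3 the differences were 0.22 for Ppy (SE 0.11, limma adjusted p = 0.9999) and 0.21 for Pyy (SE 0.099, limma adjusted p = 0.965). Without that array the groups separated upward for Ppy, Pyy and Iapp's 1423509_a_at and 1423510_at, 4 of 10 member probe sets against 9.7% of all probe sets. The array left out was the lowest for all 4, which favours such a separation. The Iapp differences were then 0.11 and 0.059 (limma unadjusted p = 0.259 and 0.502).

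The 6 arrays put Ppy and Pyy in nearly the same order, with a Pearson correlation of 0.98, and Ppy and Iapp's 1423510_at of 0.95. These are descriptions over 6 arrays that share depth and hybridization. Of 5 listed genes of PP cells, 3 were measured (Aqp3, Tspan8 and Sertm1), 0 passed (0 at an unadjusted p under 0.05), and 0 lay within background in both groups. Their summed signal was 9.63, 9.44 and 9.57 in Flox and 9.84, 10.14 and 8.98 in Tead1KO, with Tead1KO replicates 1 and 2 above every Flox array and replicate 3 below every Flox array. That sum was carried by Tspan8, a membrane tetraspanin, which read 9.59, 9.97 and 8.69 in Tead1KO, while the water channel Aqp3 read 5.22, 4.41 and 5.05 there with replicate 2 the lowest. The part of PP cell number in the values of Ppy and Pyy was not tested.

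**Figure D2:**
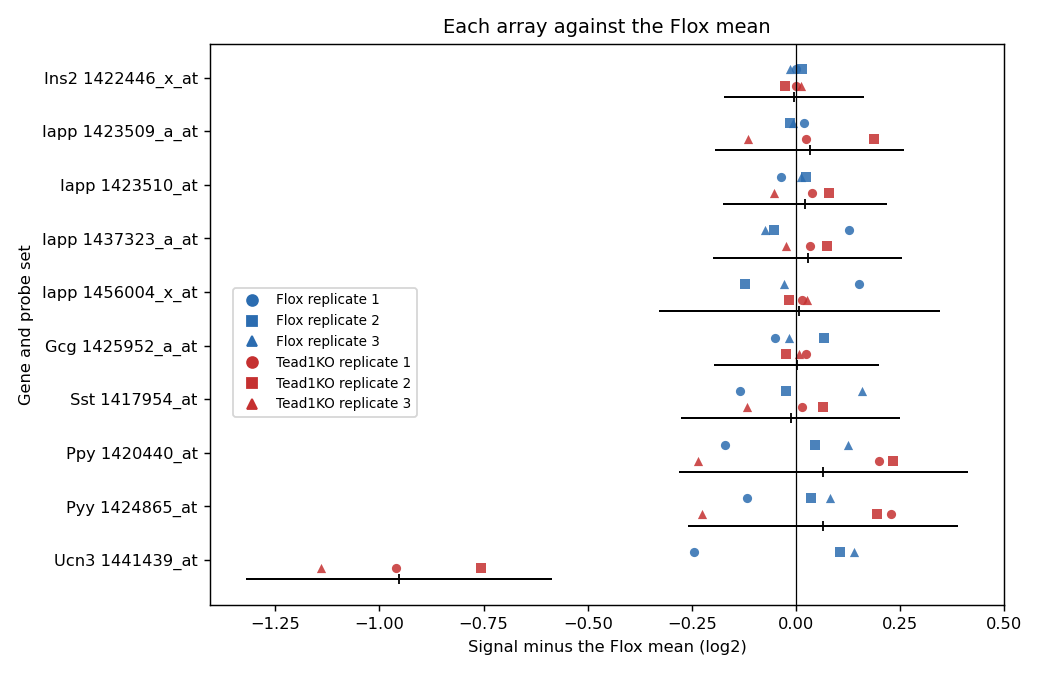
Each array's signal minus the Flox mean (log2, x axis) for the 10 member probe sets (y axis), blue Flox and red Tead1KO with the symbol giving the replicate; the black bar under each row is the difference with its 95% interval. Tead1KO replicate 3 is the lowest array for Ppy and Pyy, and the 3 Tead1KO arrays of Ucn3 lie from -1.14 to -0.76 with every Flox array to their right.

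Ucn3 was read by 1441439_at, with a mean of 12.37, among the highest 1.08% of probe sets. It lay below the group near the top, which begins at 13.12. It read 12.60, 12.95 and 12.99 in Flox and 11.89, 12.09 and 11.71 in Tead1KO. The highest Tead1KO array lay below the lowest Flox array. The group means were 12.85 ± 0.21 and 11.89 ± 0.19 (SD, n = 3 each), a difference of -0.95 (SE 0.16, 95% interval -1.32 to -0.59, limma adjusted p = 0.10 over all probe sets, unadjusted p = 0.000321). Among 1194 probe sets with means between 11 and 13, 8 fell at least as far as Ucn3, itself included, the median difference was -0.12, and 125 (10.5%) had Tead1KO arrays all below the Flox arrays. Counted from the brightest of all probe sets, Ucn3 took place 294 to 385 on the Flox arrays and 701 to 720 on the Tead1KO arrays. Leaving out Tead1KO replicate 3 gave -0.86 (adjusted p = 0.0856). A fit that takes the spiked controls into account gave -0.77 and passed (adjusted p = 0.00951). Of the other settings run, Ucn3 also passed with quantile normalization (-0.84, adjusted p = 0.0216) and when Tead1KO replicate 2 was left out (-1.05, adjusted p = 0.0433). Over the 6 fits that leave out an array, the adjusted p ranged from 0.0433 to 0.664.

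The difference between the beta cell products Ucn3 and Iapp was measured within arrays on probe sets away from the top. The Iapp probe set used can also match related transcripts, and the part of these in its signal was not tested. Ucn3's signal minus that of Iapp's 1456004_x_at was 2.59, 3.21 and 3.15 in Flox and 2.01, 2.25 and 1.82 in Tead1KO. The groups did not overlap, and the change was -0.96 (two-sided exact permutation p = 0.1, the smallest that 3 against 3 arrays can give). As the Iapp probe set spanned only 0.27 over the 6 arrays, this change mostly repeats that of Ucn3 (-0.95) and is not a separate result. Among genes above the median signal, the 3 whose values over the 6 arrays were most like Ucn3's were Krt80, a keratin, Cpm, a carboxypeptidase of the cell surface, and Rpia, an isomerase of the pentose phosphate pathway. Their Pearson correlations were 0.997, 0.997 and 0.996 over 6 arrays, the highest among 12524 genes. They differed by -1.005, -1.18 and -0.74 between groups, a direction that choosing them for likeness to Ucn3 fixed. The gene most like Ppy was Cers2 (0.99), most like Pyy was Mcu (0.99), most like Sst was Jade2 (0.99) and most like Gcg was Pax9 (0.99), each picked the same way and following arrays that lay within 0.47 of each other.

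**Figure D3:**
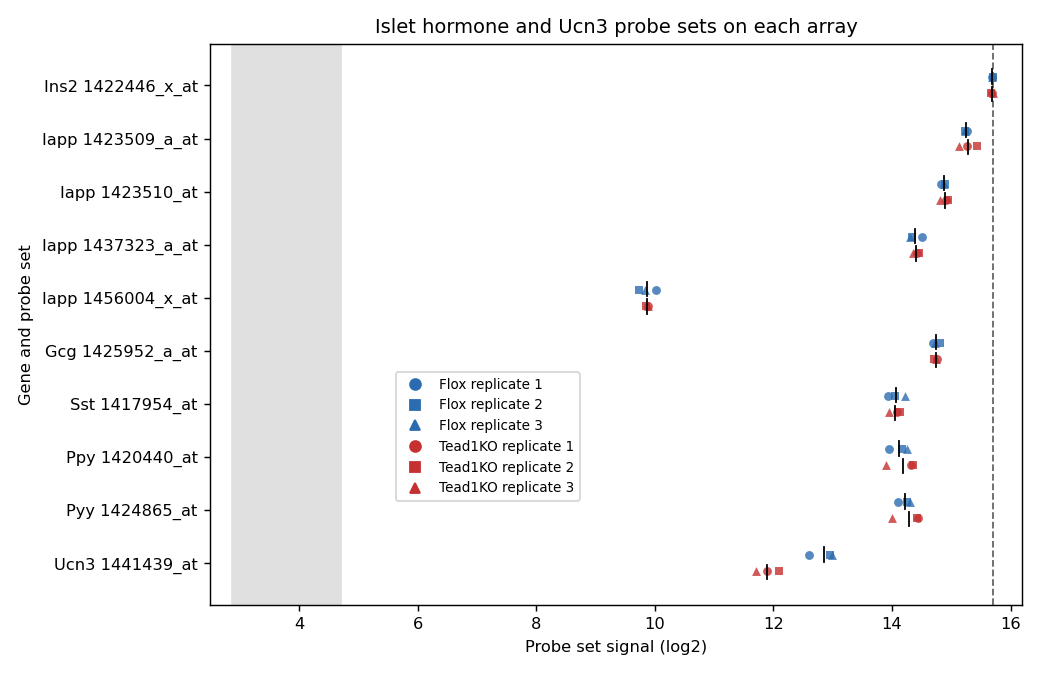
Signal (log2, x axis) of the 10 member probe sets (y axis) on each array, blue Flox and red Tead1KO with the symbol giving the replicate; black ticks are group means, the grey band is background (2.87 to 4.70) and the dashed line is the highest value, 15.71. The groups separate for Ucn3 and overlap for the 9 hormone probe sets, of which 8 crowd toward the dashed line.

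Of transcription factors that bind the hormone genes, none passed the test. Of 16 listed, 11 were measured (the rest were not analysed here). Of these, 0 passed (0.308% of all genes did), 2 had an unadjusted p under 0.05, both lower (against 4.22% of all genes), and 10 had a difference below 0, with a median of -0.43. Among all probe sets with means of 9 to 11 and 11 to 13, where most of the factors lay, 73.1% and 74.4% had a difference below 0. Without Tead1KO replicate 3 the median of the factors was -0.14. Nkx6-1, a beta cell factor, read 11.03, 11.28 and 10.96 in Flox and 10.08, 10.36 and 9.97 in Tead1KO, without overlap (difference -0.95, SE 0.17, limma adjusted p = 0.116). Pdx1, which activates Ins2 and Iapp, differed by -0.66 at its brighter probe set and by -0.77 at its dimmer probe set (limma adjusted p = 0.854 and 0.294). Neurod1 differed by -0.66, Isl1 by -0.44 and Insm1 by -0.43, with overlapping arrays. Without Tead1KO replicate 3 the differences were -0.43 for the brighter Pdx1 probe set, -0.36 for Neurod1, -0.24 for Isl1 and -0.10 for Insm1. Pax6 and Foxa2, which are active in all endocrine cells of the islet, differed by -0.084 and -0.095. Foxa1 lay within background in both groups.

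The list of beta cell maturation genes fixed beside Ucn3 holds genes that rise with it and also Npy, which marks immature beta cells in the mouse. Of 14 listed, 11 were measured (the rest were not analysed here). Of these, 0 passed, 5 had an unadjusted p under 0.05 and were lower (4.22% of all genes), 1 was higher (3.01%), and the median was -0.32. The 5 include Nkx6-1 and Glp1r, also counted among the factors and the receptors. The higher gene is Npy, also counted among the peptide relatives. Trpm5, a calcium-activated cation channel, differed by -1.49 at its brightest probe set (SE 0.21, limma adjusted p = 0.0501) and -1.98 and -1.60 at the others, of which the last passed (adjusted p = 0.0175). Slc2a2, the glucose transporter of beta cells, read 13.37, 13.58 and 13.48 in Flox and 12.60, 13.08 and 12.31 in Tead1KO, without overlap (difference -0.82, limma adjusted p = 0.331). Npy, a neuropeptide of the same family as Ppy and Pyy, read 8.08, 8.36 and 8.04 in Flox and 8.80, 10.65 and 9.61 in Tead1KO, all above the Flox arrays but unequal (difference 1.53, limma adjusted p = 0.479).

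The enzymes and granule proteins that turn the precursors into peptides included 6 near the top of the scale. Of 15 listed, 14 were measured (Pcsk2 was not analysed here) and 0 passed. At an unadjusted p under 0.05, 3 were lower (against 4.22% of all genes) and 1 was higher (against 3.01%). The median was -0.11 (-0.047 without Tead1KO replicate 3). Pcsk1, the convertase that cuts proinsulin, read 12.60, 12.69 and 12.53 in Flox and 11.97, 11.98 and 11.99 in Tead1KO, without overlap (difference -0.63, SE 0.11, limma adjusted p = 0.141). Chga, a granin near the top of the scale, differed by -0.26 and Vgf, a secreted neuropeptide precursor, by -0.64, both without overlap. Scg2, another granin near the top, differed by 0.29 with overlapping arrays.

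**Figure D4:**
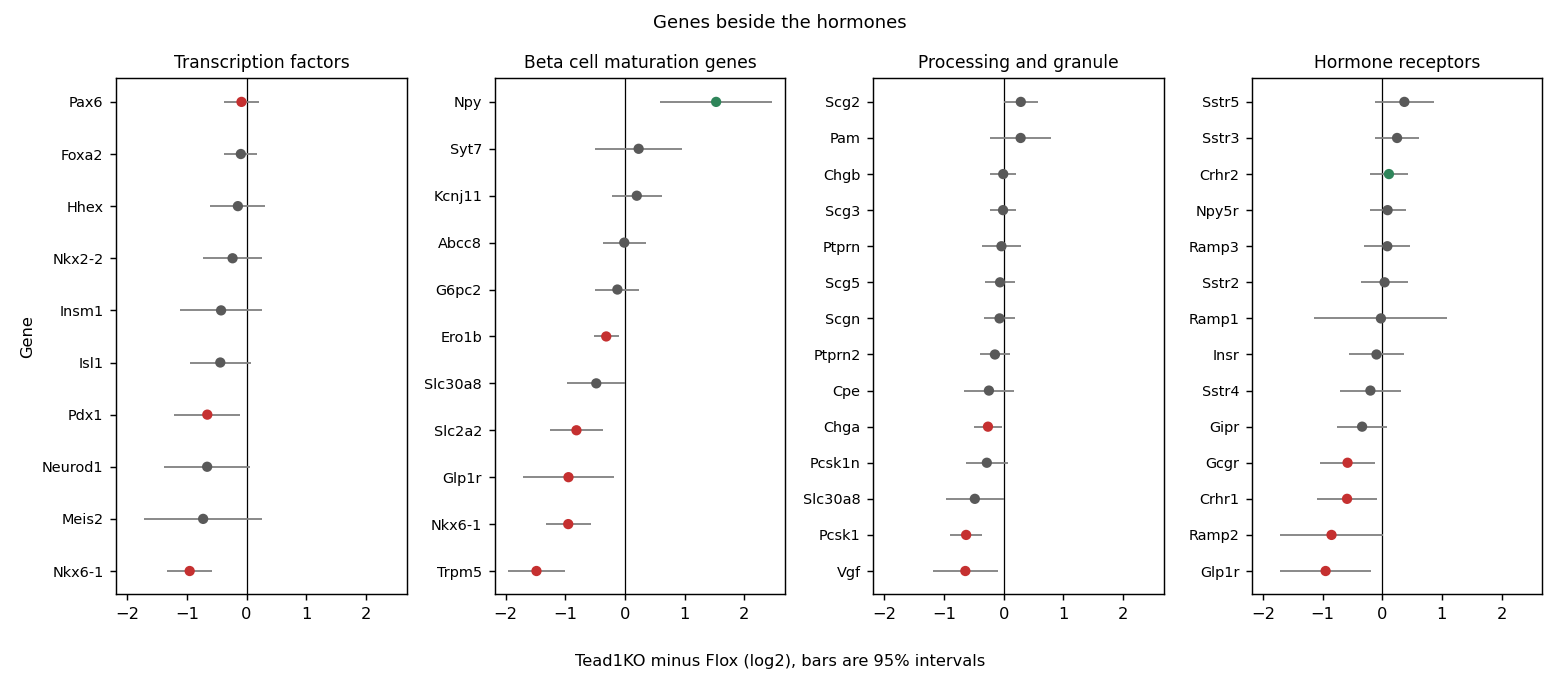
Tead1KO minus Flox (log2, x axis) for genes (y axis) of 4 lists, at each gene's brightest probe set, leaving out genes within background in both groups; bars are 95% intervals, red and green points have Tead1KO arrays all below or all above the Flox arrays, and grey points overlap. Nkx6-1 at -0.95, Trpm5 at -1.49, Pcsk1 at -0.63 and Glp1r at -0.95 lie on the low side and Npy at 1.53 on the high side.

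The receptors for these peptides were mostly dim. All 19 listed were measured, and 5 lay within background in both groups (Sstr1, Calcr, Npy1r, Npy2r and Npy4r). Of the 19, 0 passed, 3 had an unadjusted p under 0.05 and were lower (against 4.22% of all genes), and the median was -0.022. Those were Glp1r, the receptor of the Gcg product GLP-1 (-0.95, SE 0.33, limma adjusted p = 0.809), Gcgr, the glucagon receptor (-0.58, SE 0.20, limma adjusted p = 0.807), and Crhr1 (-0.59, SE 0.22, limma adjusted p = 0.861). Without Tead1KO replicate 3 Glp1r differed by -0.57, and the median of the list was 0.039. All 3 had Tead1KO arrays below the Flox arrays, but the dimmer probe set of Crhr1 differed by 0.20 with overlap. Crhr2, the receptor for the Ucn3 peptide, lay close to background in both groups (4.95 and 5.07). Its Tead1KO arrays all lay above the Flox arrays, as 5.36% of all probe sets did (difference 0.11, limma adjusted p = 0.884). Its dimmer probe set differed by -0.067 with overlap, so a change could not be resolved. Sstr3, a somatostatin receptor and the brightest gene of the list, differed by 0.25 and Insr, the insulin receptor, by -0.096.

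Of 18 relatives of these peptides, 16 were measured (Ins1 and Calca were not analysed here), and 4 lay within background in both groups (Calcb, Adm, Crh and Ucn). Of the 16, 0 passed and 2 had an unadjusted p under 0.05, both higher (against 3.01% of all genes). These were Npy and Adm, the latter within background in both groups. Ucn2, a close relative of Ucn3, read 4.60 in Flox and 4.91 in Tead1KO, and Ghrl, the precursor of ghrelin, differed by -0.31, both with overlapping arrays. Without Tead1KO replicate 3 the difference of Ucn2 was -0.086.

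Markers of other cells in an islet preparation gave 0 genes past the test. The acinar markers, which come from exocrine tissue, varied most between arrays. All 9 measured of 12 had a difference below 0 (8 without Tead1KO replicate 3), and the median was -0.19. Of all 18193 genes 9291 were below 0, and 72.6% of probe sets with means of 13 to 14, where the brightest markers lay. The markers rose and fell largely together over the arrays, so their signs are not separate observations. Their summed signal was 14.69 to 16.91 in Flox and 14.86 to 16.80 in Tead1KO, with 0 markers within background. With the mean of these markers as a covariate, an alternative chosen after seeing the data, Ucn3 differed by -0.92 (limma adjusted p = 0.150). Duct markers summed to 13.61 to 13.73 in Flox and 13.22 to 13.76 in Tead1KO over 7 measured of 9, with Cftr within background. Endothelial markers summed to 12.34 to 12.39 and 12.38 to 12.45 over 8 measured of 8. Stromal markers summed to 11.71 to 12.04 in Flox and 11.40 to 12.14 in Tead1KO over 9 measured of 9. Of these, 2 were higher and 2 lower at an unadjusted p under 0.05, against 3.01% and 4.22% of all genes. The higher were Dcn, a matrix proteoglycan (1.11), and Col1a2 (0.62), and the lower were Acta2, the actin of contractile cells (-0.99), and Rgs5, a pericyte gene (-0.62, and -0.37 without Tead1KO replicate 3). Immune markers summed to 10.38 to 10.93 in Flox and 10.07 to 10.98 in Tead1KO over 7 measured of 8, with Itgam within background, and glial markers to 7.40 to 7.59 and 7.29 to 7.88 over 4 measured of 5. The part of these cells in the hormone values was not tested.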

How the data were processed

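The deposited log2 values of 6 arrays, 3 Flox and 3 Tead1KO, come from Affymetrix Expression Console, the authors' program per the submitters' processing notes. The sources used here give neither its version nor its correction and normalization. The unit follows from the range of the values. Scanner files were not used here. Of 45101 probe sets, 64 controls were left out. Of the others, 34945 carried 1 gene symbol, 932 several and 9160 none here, and 34741 matched a RefSeq gene. All 45037 were fitted together in limma 3.58.1 (R 4.3.3, lmFit, eBayes with trend, no covariate), with Benjamini-Hochberg adjustment over all of them and a threshold of 0.05. Gene lists were counted at each gene's brightest probe set. Bacterial control probe sets with no spiked target set the background, from 2.87 to 4.70. The procedure was tested on simulated data. The number of arrays limits the precision.

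Named genes were all member probe sets, Tead1, any receptor, peptide relative or transcription factor listed, up to 3 members of other lists with the smallest unadjusted p and those past the test, and the 3 genes most correlated with each member. Ttr, Slc38a5, Scg2, Rbp4 and other genes outside this rule were named after their values were seen. The members and lists were chosen with earlier results of these data known. Alternatives were gene-level testing, quantile normalization, median centring, a dim filter, other variance priors, covariates, a replicate block, a threshold of 0.1, a top group of 1%, and each array left out.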

Additional observations from a re-analysis of the deposited data

How the results depend on the processing

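Ucn3 was lower in every fit, between -1.08 and -0.86 when single arrays were left out (adjusted p 0.0433 to 0.664). It passed with quantile normalization (-0.84), with the hybridization controls as a covariate (-0.77) and without Tead1KO replicate 2 (-1.05), so the count of members that passed was 1 there and 0 to 1 over the arrays left out. The hormone differences, none of which passed in any fit, changed sign as follows. With quantile normalization Iapp 1423509_a_at was -0.041, Gcg -0.016 and Sst 0.027. With median centring the Iapp probe sets were -0.029, -0.040, -0.034 and -0.053 and Gcg -0.060. With the hybridization controls Iapp 1456004_x_at was -0.042 and Sst 0.086, and with the acinar markers, a covariate chosen after seeing the data, -0.0067 and 0.0030. Leaving out single arrays gave -0.014 to 0.0062 for Ins2, -0.023 to 0.035 for Gcg, -0.080 to 0.066 for Sst, -0.019 to 0.22 for Ppy and -0.015 to 0.21 for Pyy. For Iapp it gave -0.045 to 0.11, -0.0072 to 0.059, -0.0093 to 0.091 and -0.053 to 0.083, from the brightest probe set to the dimmest. The count of members without overlap, 1 with all arrays, was 1 to 5, with 3 without Flox replicate 1 and 5 without Tead1KO replicate 3. Of all probe sets, 5.36% separated upward and 5.16% downward with all arrays, and 9.7% and 8.87% without Tead1KO replicate 3. The share without Flox replicate 1 was not computed, so that count has none beside it. For the beta cell maturation list the count that passed was 1 with the brightest probe set per gene, quantile normalization, no dim probe sets, no variance trend or a threshold of 0.1, 2 with the hybridization controls, and 0 to 3 over the arrays left out. With the hybridization controls 1 transcription factor, 1 processing gene and 1 stromal marker passed, and for transcription factors the count was 0 to 1 over the arrays left out. The cause of these shifts was not tested. The count over all probe sets, 81, was 143 with quantile normalization, 42 with median centring, 268, 39 and 23 with the hybridization controls, Gapdh 3'/5' difference and acinar markers as covariates, and 4 to 239 without single arrays. Deviations from the group means correlated at 0.064, 0.35 and -0.20 between same-numbered arrays, and at 0.35 between Flox replicate 1 and Tead1KO replicate 3. No label ties same-numbered arrays, so they were not taken as pairs. Both replicate 1 arrays nonetheless had the lowest acinar means (10.30 and 10.33, the others 11.38 to 12.15). With the replicate number as a block Ucn3 differed by -0.95 (adjusted p = 0.101), 0 members passed and 96 probe sets did. Whether saturation bears on the probe sets near the top was not tested.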
